A study of Danio rerio with 2 samples.

Results

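The genes described here are 6 genes of the p53 pathway, grouped under the label of arrest and feedback genes: cdkn1a, gadd45aa, phlda3, mdm2, ccng1 and rps27l. They were picked by name, 4 from the symbol of the table's zebrafish KEGG hit, phlda3 from its zebrafish Swiss-Prot hit and rps27l from its product name, 40S ribosomal protein S27-like (gene39452). All 6 were found among the 1287 genes of the deposited table. The data are 2 messenger RNA libraries from whole zebrafish embryos (Danio rerio) of the AB background at 28 hours post fertilization, 1 made from wild-type (WT) and 1 from ezh2-/- embryos. The protein Ezh2 is the histone methyltransferase of Polycomb repressive complex 2 and helps keep developmental genes silent. The labels name neither the ezh2 allele nor how many embryos were pooled, and they give no treatment. With 1 library per genotype the differences have no replicate check, so no p-value or SD is given.

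p53 is a transcription factor that is held at a low level because the ubiquitin ligase Mdm2, itself a product of a p53 target gene, marks it for degradation. When DNA is damaged or ribosome assembly is disturbed, p53 escapes from Mdm2 and switches on genes that stop the cell cycle, help repair or kill the cell. In zebrafish embryos cdkn1a, mdm2 and ccng1 are commonly used as readouts of p53 activity.

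The table is a selection by the authors, limited to an absolute log2 fold change of 1 or more and an FDR of at most 0.00996, as the authors' deposited table gives them, so a gene outside it was not analysed here. Its counts therefore give no library depth. Genes were matched to gene lists by symbol, which 692 of the 1287 rows received, so a list member under another name would be missed. ezh2 itself was not among the listed genes, and the genotype labels were not checked on it. FPKM values, which the authors scaled for the length of the transcript and the size of the library, give each gene's level, and genes are compared with each other on this scale alone. Folds are ratios of raw counts, mutant over WT, on the scale between the libraries that the authors' fold changes imply, and ranges in brackets are 95% exact intervals that cover counting error only.

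In the mutant library all 6 genes were higher by 2-fold or more, as were 68.1% of the 1287 listed genes, and none was lower by that fold, as were 31.9%. The 2 shares cover the whole table, since the authors' selection leaves no smaller fold in it. At 4-fold the count was 5 of 6, against 22.5% of listed genes, with ccng1 below that fold. Their median log2 fold change was 2.54, with medians of the members' interval bounds of 2.34 and 2.75, beside a median of 1.31 over all listed genes and of 1.61 over the 876 listed genes higher by 2-fold or more. The authors' deposited table gives an FDR of 0 for 5 of the 6, all but ccng1, as for 4.51% of the listed genes. These shares describe 1 library against 1 library and genes chosen with these results known.

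Among the genes that halt the cell cycle, cdkn1a had the largest fold. It encodes p21, which binds and blocks cyclin-dependent kinases. cdkn1a (gene34198) had 61 counts in the WT library and 1337 in the mutant library. Its level was 1.54 FPKM in WT (1.18 to 1.98) and 35.3 FPKM in the mutant library (33.4 to 37.2). The counts differ 22.1-fold (17.1 to 29.1), a log2 fold change of 4.46 that ranked 35 of 1287. cdkn1a was the lowest of the set in WT, while in the mutant library it stood above phlda3 and level with gadd45aa within counting error. Of the 364 other listed genes whose WT FPKM lay within 2-fold of it, only fosab had a larger log2 fold change.

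gadd45aa encodes a small stress protein of the Gadd45 alpha type, which in mammals binds Cdk1 and hinders entry into mitosis. gadd45aa (gene1762) had 49 WT and 718 mutant counts. Its level was 2.24 FPKM in WT (1.66 to 2.97) and 33.0 FPKM in the mutant library (30.6 to 35.5), and the counts differ 14.8-fold (11.1 to 20.2). It was the nearest member to cdkn1a in both libraries, and their counting intervals overlap in each. The fold of cdkn1a divided by that of gadd45aa was 1.5 with an interval of 0.99 to 2.24, so the order of this pair is within counting error. Among 396 other listed genes of like WT FPKM, 3 had a larger log2 fold change: fosab, cbx7a and cdkn1a.

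The rest of the set was higher as well, from higher WT levels. phlda3 encodes a protein with little more than a pleckstrin homology domain, which in mammals competes with the kinase Akt for membrane lipids and so restrains growth and survival signals. phlda3 (gene35671) had 106 WT and 686 mutant counts. Its level was 4.19 FPKM in WT (3.43 to 5.07) and 27.9 FPKM in the mutant library (25.8 to 30.1), a 6.54-fold difference in counts (5.32 to 8.10). Its mutant interval lies below those of cdkn1a and gadd45aa, although its WT level lies above both. Of 369 other listed genes of like WT FPKM, 2 had a larger log2 fold change.

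mdm2 closes the main feedback loop on p53. mdm2 (gene5753) had 831 WT and 4279 mutant counts. Its level was 18.4 FPKM in WT (17.1 to 19.7) and 103 FPKM in the mutant library (100.1 to 106). The counts differ 5.20-fold (4.83 to 5.61), and the FPKM ratio of mdm2 was 5.62, just above this interval. None of the 203 other listed genes with a WT FPKM within 2-fold of it had a larger log2 fold change, and 59 of those 203 were higher in the mutant library at all.

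ccng1 encodes cyclin G1, which in mammals brings protein phosphatase 2A to Mdm2 and so supports its action on p53. ccng1 (gene25103) had 10450 WT and 29568 mutant counts, the latter the highest mutant count of any listed gene. Its level was 335 FPKM in WT (328 to 341) and 1005 FPKM in the mutant library (993 to 1016). This is the smallest fold of the set, 2.86 in counts (2.79 to 2.92), and at the same time the largest gain in FPKM of all 1287 listed genes, 669.9. The FPKM ratio was 3.0, outside the counting interval of the count ratio, as was that of mdm2. Only 14 other listed genes had a WT FPKM within 2-fold of it, 3 of them higher in the mutant library and none by a larger fold.

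rps27l encodes a paralogue of the ribosomal protein Rps27 and in mammals is a direct p53 target whose product binds Mdm2. rps27l (gene39452) had 421 WT and 1865 mutant counts. Its level was 64.6 FPKM in WT (58.6 to 71.1) and 279.8 FPKM in the mutant library (267 to 293), a 4.47-fold difference in counts (4.02 to 4.99). It was the only one of the 1287 listed genes with ribosomal protein in its product name, and none of 80 other cytosolic ribosomal protein genes was matched in the table. Since the Rps27 genes are similar in sequence, reads may have been divided between copies, and the identity of this row rests on its product name. The Swiss-Prot hit of the same row is rps27 of the frog Xenopus laevis, so the row may hold a gene for Rps27 itself.

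**Figure D1:**
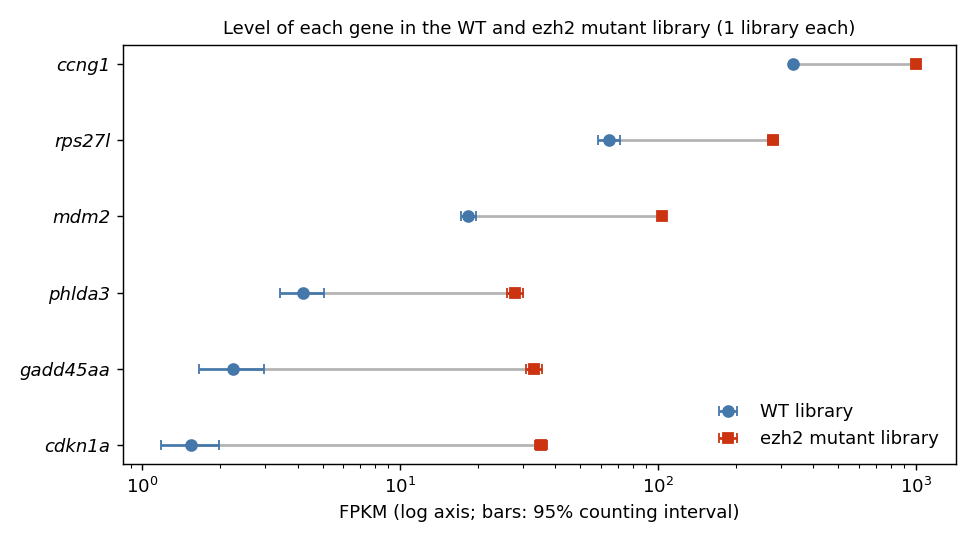
Level of the 6 genes in each library, in FPKM on a log axis, with circles for the WT library, squares for the ezh2 mutant library and bars for the 95% counting interval. The WT levels spread from 1.54 to 335 FPKM and the mutant levels from 27.9 to 1005 FPKM, and within each gene the intervals of the libraries do not overlap.

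The 6 genes differed far more from each other in WT than in the mutant library. By FPKM the WT order from high to low was ccng1, rps27l, mdm2, phlda3, gadd45aa and cdkn1a, and the highest was 217 times the lowest. The counting intervals overlap in 1 pair of neighbours, gadd45aa and cdkn1a. In the mutant library the order began with the same 3 genes, followed by cdkn1a, gadd45aa and phlda3, and the highest was 36.0 times the lowest. ccng1 made up 78.6% of the summed WT FPKM of the set and 67.7% of the mutant sum. The sums were 425.6 and 1484 FPKM, a ratio of 3.49, and ccng1 supplied 63.3% of the gain.

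The order of the folds was the exact reverse of the order of WT levels: cdkn1a, gadd45aa, phlda3, mdm2, rps27l, ccng1. The Spearman correlation of WT FPKM with the log2 fold change was -1 over the 6 genes and -0.71 over the 876 listed genes at least 2-fold higher. Both are descriptions, since the WT count enters both measures and the authors' selection removes small folds. Beyond the pair of cdkn1a and gadd45aa, each step in the fold order exceeded counting error, in 2 cases narrowly. The fold of phlda3 was 1.26 times that of mdm2 (1.01 to 1.58), and that of mdm2 was 1.16 times that of rps27l (1.02 to 1.32). The larger steps lay between gadd45aa and phlda3, at 2.26 times (1.57 to 3.30), and between rps27l and ccng1, at 1.57 times (1.40 to 1.75). These ratios of folds need no scale between the libraries.

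**Figure D2:**
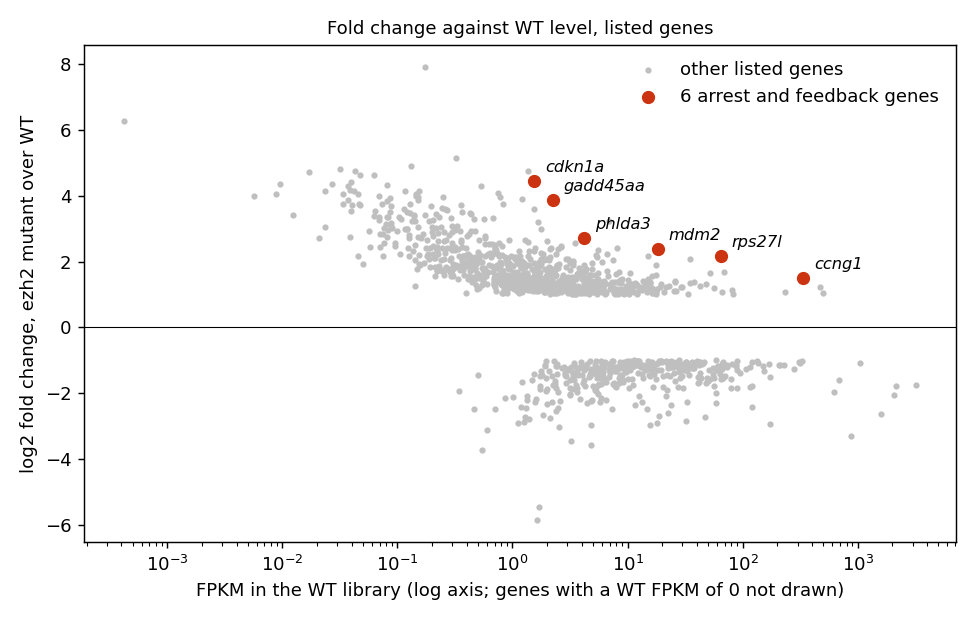
Log2 fold change of mutant over WT counts against the WT level in FPKM on a log axis, for the listed genes with a WT FPKM above 0, with the 6 arrest and feedback genes as large labelled points. The 6 points lie along the upper edge of the cloud, from cdkn1a at 1.54 FPKM and a log2 fold change of 4.46 to ccng1 at 335 FPKM and 1.51.

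No member was near silent in WT. Each had more than 1 FPKM there, while 397 of the listed genes had less. In WT 4 of the 6 lay above the median of the listed genes, 2.41 FPKM, and cdkn1a and gadd45aa lay below it. In the mutant library all 6 lay above the median of 4.14 FPKM. ccng1 ranked 3, rps27l 9 and mdm2 26 by mutant FPKM among 1287 genes, and phlda3, the lowest of the set, ranked 104. By gain in FPKM the set ran from rank 1 for ccng1 and 5 for rps27l to rank 46 for phlda3.

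Other regulators and feedback genes of p53 were matched by symbol in part, and the share of all zebrafish genes that reached the table was not computed. Among 18 genes of the p53 family and its regulators, 1 was listed, the p53 kinase gene hipk2. It had 132 counts in WT and 336 in the mutant library, a 2.57-fold difference (2.10 to 3.17). Of 10 genes in the list of further feedback genes 3 were matched, 2 higher and 1 lower, beside 68.1% higher and 31.9% lower over all listed genes. The sestrin genes, whose products restrain the growth kinase complex TORC1, were the higher ones: sesn2 by 2.99-fold (2.33 to 3.89) and sesn3 by 2.93-fold (2.73 to 3.15).

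The gene for cyclin G2, the close relative of cyclin G1, was lower. ccng2 (gene32967) had 897 counts in WT against 382 in the mutant, thus 2.32-fold fewer (2.06 to 2.63), and its level was 24.7 FPKM in WT and 10.7 FPKM in the mutant library. The fold of ccng1 was 6.64 times that of ccng2 (5.87 to 7.52). In mammals ccng2 is chiefly known as a gene switched on by FoxO factors.

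The other Gadd45 genes had smaller folds than gadd45aa. Of 6 in the list 2 were listed and both were higher, as were 68.1% of all listed genes. gadd45bb was higher by 3.20-fold (2.49 to 4.15) from 83 WT counts and gadd45ga by 2.63-fold (2.06 to 3.38) from 93. A gamma-like Gadd45 gene (gene33486), which is in no list and was picked with its values in view, had 1497 counts in WT against 687 in the mutant and was 2.16-fold lower (1.97 to 2.36). The members of this family are similar in sequence and a table hit can be the closest paralogue.

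Of 24 genes in the list of further p53 targets in growth arrest 3 were matched, 1 higher and 2 lower. Over all listed genes 68.1% were higher and 31.9% lower. fosl1a, which encodes an AP-1 factor, was 20.1-fold higher (14.2 to 29.2). The Notch receptor genes notch1b and notch1a were 2.34-fold (2.21 to 2.49) and 2.06-fold (1.97 to 2.14) lower. Whether these 3 genes act in growth arrest or respond to p53 in these embryos was not tested. In the repair and metabolism list 2 of 24 were listed, 1 higher and 1 lower, beside the same shares over all listed genes. The forkhead gene foxo3b was 3.27-fold higher (3.0 to 3.57), and ddit4, whose product inhibits TORC1, was 3.44-fold lower (3.18 to 3.73).

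All 5 listed of 22 death genes were higher, as were 68.1% of all 1287 listed genes. The count alone therefore does not set the death genes apart. The largest folds were 35.8 (24.6 to 54.1) for gene13767, whose product name, tumor necrosis factor receptor superfamily member 27, is a synonym of the p53 target eda2r in mammals, and 17.2 (12.9 to 23.4) for bbc3, which encodes the BH3-only protein Puma. In FPKM these stood at 12.5 and 13.8 in the mutant library, below each of the 6 arrest and feedback genes there. casp8, tnfrsf1a and casp3b were 6.17-fold (4.82 to 8.0), 3.69-fold (3.08 to 4.45) and 2.38-fold (1.71 to 3.33) higher.

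Few genes of the cell cycle machinery on which p21 acts were matched by symbol, while 14 of the 1287 rows, ccng1 among them, carry the annotation class for cell cycle control. Of 25 cyclin and cyclin-dependent kinase genes 1 was matched, ccnd2b, a D-type cyclin gene with 18 counts in WT and 88 in the mutant library, 4.94-fold higher (2.95 to 8.71). A cyclin Dx gene (gene4061), which is in no list and was picked with its values in view, had 270 counts in WT and 108 in the mutant and was 2.48-fold lower (1.97 to 3.12). Of 54 genes in the list of replication and mitosis genes 2 were matched, and 1 of these, rbl2, is a regulator of such genes. rbl2 encodes the pocket protein p130 of the complex that represses cell cycle genes in resting cells, and had 96 counts in WT and 1274 in the mutant library, 13.4-fold higher (10.9 to 16.7). cenpf, a kinetochore gene, was 2.23-fold lower (2.08 to 2.39). None of the 10 other genes for inhibitors of cyclin-dependent kinases was matched by symbol. A gene named cyclin-dependent kinase inhibitor 2A-like (gene539), picked with its values in view, had 27 counts in WT and 111 in the mutant library, 4.15-fold higher (2.71 to 6.58).

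**Figure D3:**
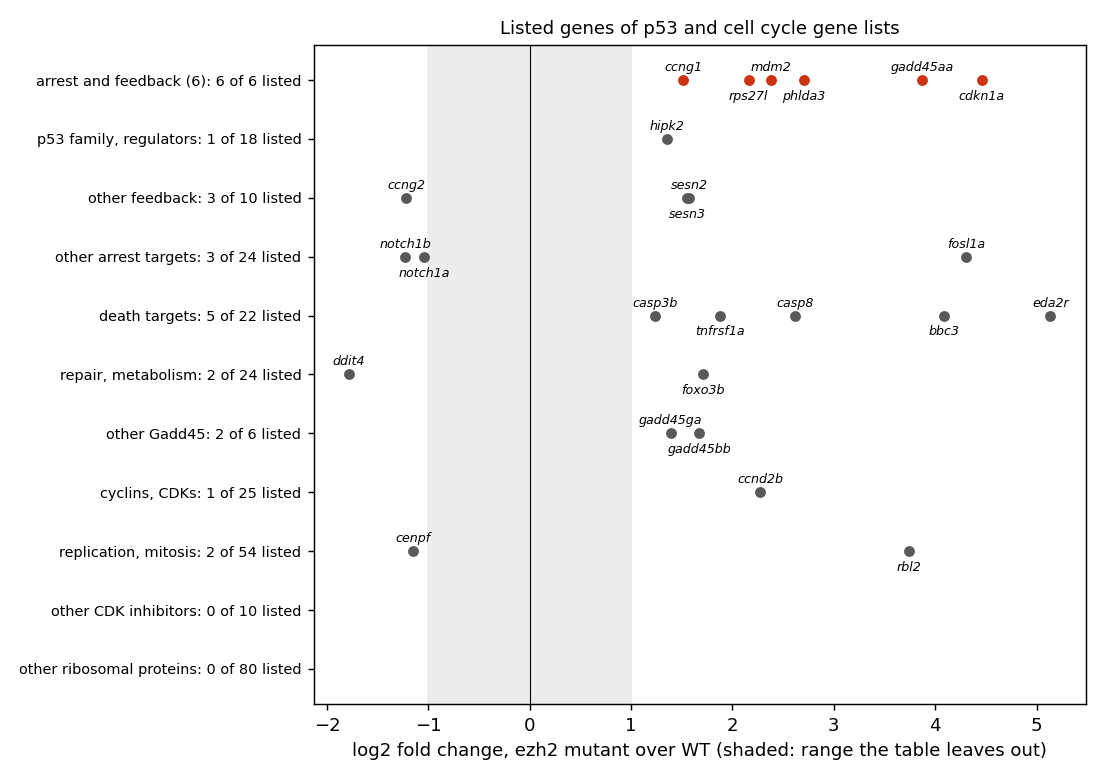
Log2 fold change of mutant over WT for each listed gene of 11 gene lists, 1 row per list with the number of its genes that were listed, and the 6 arrest and feedback genes on top. The 6 genes run from 1.51 to 4.46, and ccng2, ddit4, notch1a, notch1b and cenpf are the listed genes on the lower side. The row for replication and mitosis includes rbl2, a regulator of such genes.

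Markers of several tissues also differed between the libraries. In whole embryos fewer cells of a type and less RNA per cell cannot be told apart. Of 13 blood markers 4 were listed, at 5 loci that were all lower. Their summed level was 1638 FPKM in WT and 313 FPKM in the mutant library. Most of each sum came from 2 loci both named hbae1.1, an embryonic alpha globin gene. They stood at 882.5 and 685.9 FPKM in WT and at 81.7 and 206.8 FPKM in the mutant library. Of 13 neural markers 5 were listed, all lower, with sums of 490.2 and 198 FPKM. Over all listed genes 31.9% were lower. Of 16 epidermis markers cdh1 alone was listed, at 17.5 and 55.6 FPKM, and none of 14 muscle markers was. No defining marker among the listed ones was at 0 in either library, and the part of tissue composition in the levels of the 6 genes was not tested.

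The annotation of the members overlapped little. cdkn1a and mdm2 share the term for response to X-ray, and mdm2 alone carries the term for negative regulation of cell cycle arrest. gadd45aa and rps27l are the only 2 listed genes annotated as structural constituents of the ribosome. For gadd45aa this goes with a Swiss-Prot hit to chicken ribosomal protein S12 in the same row, while its product name and zebrafish hit are those of Gadd45 alpha.

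The listed genes most like cdkn1a, by the distance between log2 FPKM values over the 2 libraries, were fosab, gadd45aa, cyp24a1, cbx7a and an RNF14-like gene. fosab, at 1.36 FPKM in WT and 35.1 FPKM in the mutant library, lay at a distance of 0.18. gadd45aa lay at 0.55, cyp24a1 at 0.96, cbx7a at 1.0 and the RNF14-like gene at 1.23. With 2 libraries this says only that the levels are close.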

How the data were processed

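Messenger RNA was measured in 1 WT and 1 ezh2-/- library. Per the labels' protocols, Trizol RNA was poly(A)-selected and made into libraries with a NEBNext Ultra kit, which does not mark strand, so overlapping antisense genes cannot be told apart. The submitters' processing notes name GRCz10, Bowtie 0.12.2 and Cufflinks, with no role; the sources used here give neither the read counter nor the test behind the FDR. Per the file headers, the authors deposited a raw read count and an FPKM value per gene and library, an FDR (adjusted p-value) and a log2 fold change.

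From these, with Python 3.11.15 and scipy 1.17.1, log2 fold changes were computed from counts with 0.5 added, plus a scale of 0.014, the median difference from the authors' log2 fold change over the 391 genes that had 200 or more counts in each library. Intervals are exact (Clopper-Pearson for a fold, conditional for a ratio of folds, Poisson for a level), and cover counting error only, since without molecular identifiers reads do not count molecules. The steps were tested on simulated data. Symbols came from the table's zebrafish KEGG hit (562 genes), Swiss-Prot hit (126) or product name (4), updated by gene ID in a RefSeq table of GRCz12tu used for names alone; list sizes count symbols in that table. No coordinates or sequences are given. Results for some genes of the lists are not reported here.

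The members, lists and tests were chosen with earlier results of these data known. Named genes are the members, up to 6 listed genes per p53 or cell cycle list by absolute fold, the tissue markers, and the 5 genes nearest to cdkn1a; any other gene is marked as picked with its values in view. Alternatives were the added count, FPKM in place of counts, other scales, and the authors' own folds.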

Additional observations from a re-analysis of the deposited data

How the results depend on the processing

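All 6 genes kept a higher level in the mutant library under each of the 6 alternatives run for single genes. Most of these could not have shown otherwise. A value added to counts or FPKM cannot reverse a direction, and the scale used here was itself taken from the authors' folds. The scale between the libraries mattered most. In 1 alternative the median log2 fold change of the listed genes was set to 0, a shift of 1.31. The table holds only selected genes, 68.1% of them higher, and the origin of this shift was not tested. The median of the 6 was then 1.23, and single genes ranged from 0.21 for ccng1 to 3.15 for cdkn1a. Of the 6, 4 were at least 2-fold higher (rps27l at 0.85 and ccng1 were not). Among all listed genes 210 were at least 2-fold higher, against 876, with 411 lower in both cases. With a scale from counts per FPKM the median was 2.56, with 5 counts added 2.51, from FPKM with 0.1 added 2.59, from the authors' deposited log2 fold changes 2.53, and without rps27l 2.70. Adding 1 to FPKM gave 3.84 for cdkn1a and 3.39 for gadd45aa, by construction lower for genes with low WT FPKM. No paired analysis was possible because each genotype has 1 library, and no library could be left out.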

Other observations

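A few relatives of the genes above, all picked with their values in view, were also in the table. phlda2, a paralogue of phlda3, had 249 counts in WT and 689 in the mutant library, 2.79-fold higher (2.41 to 3.24), and a WT level of 15.1 FPKM against 4.19 FPKM for phlda3. Another sestrin gene, sesn4, was 2.07-fold higher (1.79 to 2.41). foxo1a, a forkhead gene, had 30 counts in WT and 134 in the mutant library, 4.51-fold higher (3.02 to 6.95). A gene named tumor protein p53-inducible nuclear protein 2-like was 3.10-fold higher (2.60 to 3.71) and a gene named apoptosis-enhancing nuclease, whose zebrafish hit is isg20, was 2.14-fold higher (1.95 to 2.35). A gene named mediator of DNA damage checkpoint protein 1-like, with its closest product in a cichlid fish, was 2.36-fold lower (2.13 to 2.62).

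The number of counts behind 1 FPKM, mutant library over WT library, differed among the 6 genes. The ratio was 0.92 for mdm2, 0.94 for ccng1, 0.96 for cdkn1a, 0.97 for phlda3, 1.0 for gadd45aa and 1.02 for rps27l. The median over 391 well-counted genes was 0.98, with percentiles 5 and 95 at 0.83 and 1.08, so each of the 6 lay within the usual range.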
